A study of Mus musculus with 8 samples.

Results

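The class II genes of the major histocompatibility complex (MHC, called H2 in the mouse) were examined in sorted splenic B cells of mice that carry the human germinal centre gene HGAL. The list held 10 genes by name, namely the classical chains H2-Aa, H2-Ab1, H2-Ea and H2-Eb1, the invariant chain Cd74, the peptide-loading chains H2-DMa and H2-DMb2, the loading inhibitors H2-Oa and H2-Ob, and the transactivator Ciita. Of these 10 genes, 9 had a probe set annotated to them alone, out of 19937 genes measured in this way. H2-DMb2 was represented by no probe set of its own, since the one that lists it also lists its near copy H2-DMb1, and it is not analysed here. Each of the 9 genes had 1 probe set.

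The 4 Sca1-HGAL arrays, from adult mice labelled Sca1-HGAL knock-in and described in the design text as transgenic, were compared with the 4 Control arrays from wild-type littermates. HGAL was driven by the Sca1 (Ly-6E.1) promoter, both groups had a CBAxC57BL/6J background, and spleen cells positive for CD22 and B220 were sorted before their RNA was labelled for the arrays (Affymetrix Mouse Gene 1.0 ST). No exact age or litter is labelled, nor whether each array came from a different animal. The spread that p-values rest on may therefore be partly technical. Sex-linked RNA differed among the Control arrays, as given below, so these did not all come from the same animal. Levels are log2 of the intensities the authors deposited, and log2 folds are Sca1-HGAL minus Control from limma, adjusted by Benjamini-Hochberg over 21640 probe sets.

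B cells take up antigen through their receptor, cut it in endosomes and show the peptides to CD4 T cells on class II molecules. In the cell the alpha and beta chains first bind the invariant chain, whose remnant peptide is then exchanged for antigen peptide with the help of DM. DO, which is made mainly in B cells, binds DM and restrains that exchange. CIITA switches on the whole set without touching DNA itself, by joining RFX, CREB and NF-Y proteins assembled on the S, X and Y boxes that class II promoters share.

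The stretches of the class II promoters that hold the letters of the Y box are shown because CIITA reaches class II genes through such boxes. They were picked by these letters alone, and binding at them was not measured. RefSeq promoter windows (GRCm38.p6, 250 bases before to 50 after each annotated start) were matched for 6 of the 10 genes, in 7 windows. In each line below, capitals mark ATTGG, the Y box as read on the gene's strand, and, where the letters occur at the usual place before it, AGNAAC, the core of the X box.
H2-Aa: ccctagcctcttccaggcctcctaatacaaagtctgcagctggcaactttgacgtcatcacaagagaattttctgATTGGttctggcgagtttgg
H2-Eb1: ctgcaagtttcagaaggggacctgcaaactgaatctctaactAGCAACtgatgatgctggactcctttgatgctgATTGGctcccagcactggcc
H2-DMb2: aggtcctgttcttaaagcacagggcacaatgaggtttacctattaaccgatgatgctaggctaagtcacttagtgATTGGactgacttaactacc
H2-Oa: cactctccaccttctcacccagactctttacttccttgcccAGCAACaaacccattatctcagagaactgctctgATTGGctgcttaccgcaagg
H2-Ob: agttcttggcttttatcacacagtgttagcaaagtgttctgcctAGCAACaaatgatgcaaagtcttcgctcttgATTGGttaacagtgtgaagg
All 5 genes lie on chromosome 17. The stretches are at chr17:34287852-34287946 on the minus strand for H2-Aa, and on the plus strand at chr17:34305733-34305827 for H2-Eb1, chr17:34145084-34145178 for H2-DMb2, chr17:34092261-34092355 for H2-Oa and chr17:34238773-34238867 for H2-Ob.

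In all 5 genes ATTGG began between 43 and 90 bases before the annotated start. The CCAAT letters, searched on both strands, occurred in 37.4% of all 32851 promoter windows, and AGNAAC, searched on both strands, in 48.1%, so neither alone sets a gene apart. H2-Eb1, H2-Oa and H2-Ob held AGNAAC on the gene's strand 33, 34 and 31 bases before ATTGG, start to start. Such a pair, 20 to 45 bases apart, a spacing chosen after the sequences were seen, occurred in 230 of the 32851 windows (0.700%). H2-Eb1, H2-DMb2 and H2-Ob also shared ATGATGC between both boxes or, in H2-DMb2, ahead of the Y box, letters that were found on either strand in 2.46% of windows and were likewise chosen after the sequences were seen. The first H2-DMa window held none of the 3 motifs, and the second held ATTGG far upstream, at position -198 from its start, and AGNAAC on the opposite strand just past the start. A match describes the letters only, and its absence covers only this window.

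**Figure D1:**
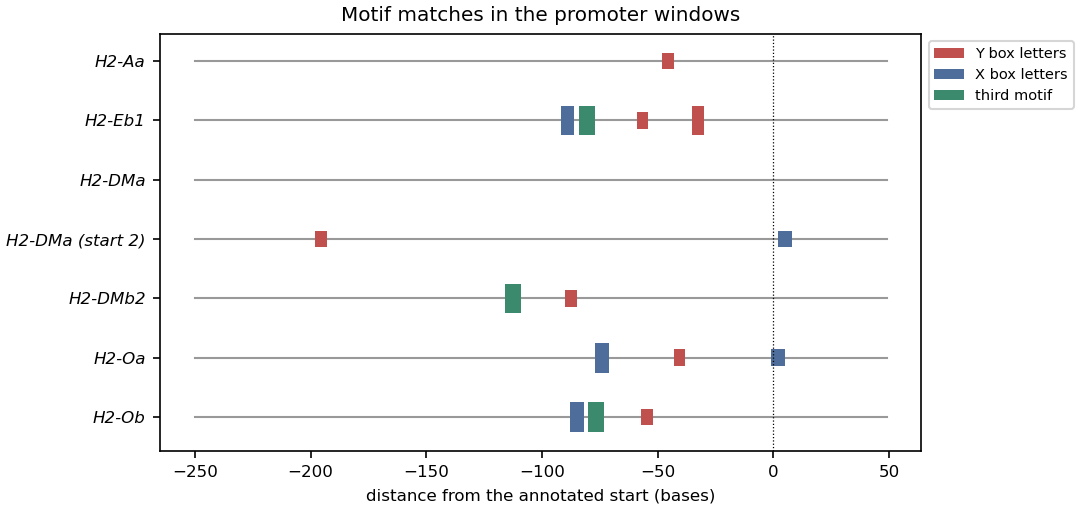
Positions of motif matches (coloured blocks) in the 7 promoter windows of 6 class II genes, in bases from the annotated start (dotted line). Tall blocks lie on the gene's strand and short ones on the opposite strand, and the third motif is ATGATGC. In H2-Eb1, H2-Oa and H2-Ob an X box match stands 31 to 34 bases before the Y box match.

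The labelled cell type was checked first. Of 6 B-cell markers 5 had a probe set of their own, Cd22, Cd79a, Cd79b, Ms4a1 and Ptprc, and their summed intensity ran from 45814 to 46607 on Sca1-HGAL arrays and from 47299 to 48337 on Control arrays. These sums did not overlap, and none of the 5 genes passed limma. Markers of other cell types were then read, as sums per list and gene by gene, since a bright gene can carry a sum. The 8 dendritic cell markers summed to 855 to 989 on Sca1-HGAL and 806 to 1118 on Control arrays, with the means of Clec9a and Clec10a under log2 6. Of these 8 genes none passed limma and 5 had an unadjusted p under 0.05, in both directions, against 9.59% of all probe sets. Itgax, which encodes CD11c, had the smallest p. Its mean was 7.50 on Sca1-HGAL and 7.02 on Control arrays, with separated groups (adjusted p = 0.230). Zbtb46, with a log2 fold of 0.22 (adjusted p = 0.417), was also separated, and Flt3 had 0.41 (adjusted p = 0.419). Clec9a, with -0.34 (adjusted p = 0.295), was separated in the opposite direction, and Cd209a had -0.65 (adjusted p = 0.505). The list had 5 positive and 3 negative log2 folds, with a median of 0.06. The 8 macrophage and monocyte markers summed to 1879 to 2886 on Sca1-HGAL and 1916 to 2737 on Control arrays, with none under log2 6. The 6 T cell markers summed to 802 to 2335 on Sca1-HGAL and 1083 to 1525 on Control arrays. Among these 6 Cd3g had the widest range, 3.05. It was at 9.89, 9.34, 6.85 and 8.43 on Sca1-HGAL arrays and at 7.87, 8.35, 8.57 and 8.02 on Control arrays (adjusted p = 0.850). The 4 plasmacytoid dendritic cell markers summed to 2410 to 3302 on Sca1-HGAL and 2502 to 2988 on Control arrays, most of it from Tcf4, at a mean of 11.17 on Sca1-HGAL and 10.95 on Control arrays. Their median log2 fold was -0.37, and Siglech, at -0.68 (adjusted p = 0.342), and Ccr9, at -0.83 (adjusted p = 0.294), were lower on every Sca1-HGAL array than on any Control array. For the 6 plasma cell markers, a cell type that shuts Ciita off, the sums were 3808 to 6161 on Sca1-HGAL and 5476 to 6087 on Control arrays. Within this list Slamf7 had a log2 fold of -0.64 with separated groups (adjusted p = 0.163), and Sdc1, which encodes CD138, -0.43 with groups that met at 7.37 (adjusted p = 0.217). The individual genes were named after their values were seen. The part of these cells in the results below was not tested, and fewer cells of a type and less RNA per cell cannot be told apart. The Control 2 and Control 4 arrays differed from the other 6 arrays in sex-linked RNA. Xist, made from the inactive X chromosome of females, was at 5.28 to 5.65 on the 4 Sca1-HGAL arrays and at 12.17 and 12.18 on Control 2 and 4, with Control 1 and 3 at 5.32 and 5.56. The Y-linked gene Eif2s3y was at 10.22 to 10.50 on Sca1-HGAL arrays and at 4.22 and 3.96 on Control 2 and 4, with Control 1 and 3 at 10.61 and 10.21. Uty and Kdm5d, also Y-linked, were lowest on the same pair, Uty at 4.78 and 4.93 and Kdm5d at 6.22 and 6.04. The labels give no sex. All 4 Sca1-HGAL arrays had low Xist and high Y-linked signal, so group and sex-linked signal are partly confounded in the main fit. The class II folds are also given without Control 2 and 4 below.

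Class II genes were strongly expressed in B cells of both groups, and their levels differed little between Sca1-HGAL and Control arrays. None of the 9 passed an adjusted p under 0.05, where 1 of 21640 probe sets (0.00462%) did. One of the 9, Ciita, had an unadjusted p under 0.05, against 9.59% of all probe sets. The log2 folds ran from -0.04 to 0.14 with a median of 0.05, beside a median of 0.02 over all genes. Of the 9 folds, 7 were positive and 2 negative, where 56.1% of all probe sets were positive. The limma 95% intervals of 8 of the 9 genes lay within -0.18 and 0.28, which corresponds to 0.88-fold to 1.22-fold. That of H2-Oa reached from -0.20 to 0.49. These intervals describe array signal. The classical chains and Cd74 were among the brightest probe sets, and whether folds are compressed at such signals was not tested.

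**Figure D2:**
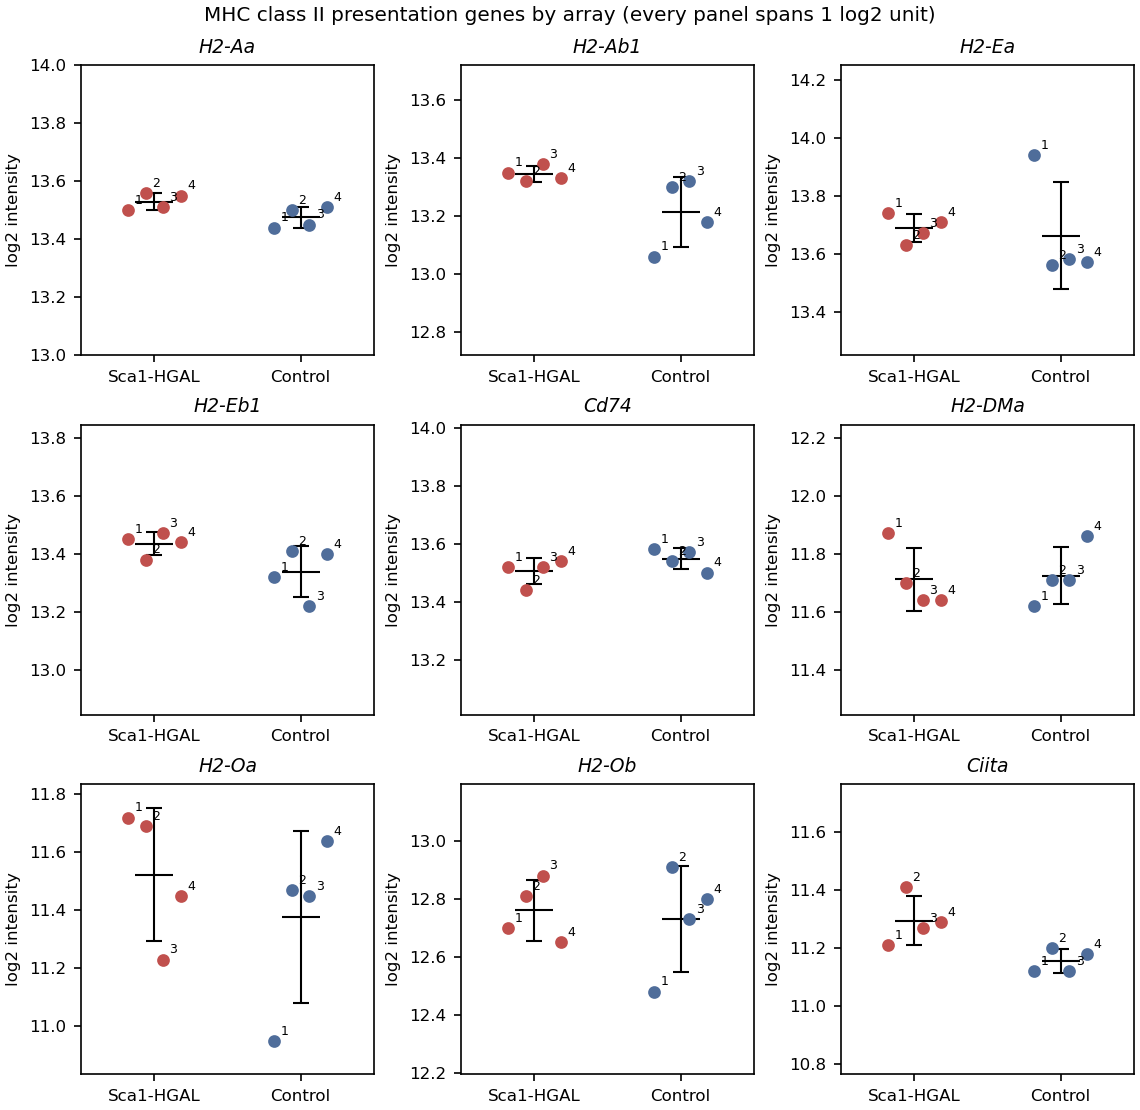
Log2 intensity of the 9 class II genes on each array, numbered by replicate, with the group mean and SD (bars, n = 4 each). Every panel spans 1 log2 unit. Ciita is the 1 gene whose groups do not overlap, and Control 1 is lowest for H2-Ab1, H2-Oa and H2-Ob and highest for H2-Ea.

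Ciita, the master regulator that decides whether a cell makes class II, came closest to a difference. It was at 11.21, 11.41, 11.27 and 11.29 on Sca1-HGAL arrays 1 to 4, against 11.12, 11.20, 11.12 and 11.18 on Control arrays 1 to 4. Every Sca1-HGAL array thus stood above every Control array, with Sca1-HGAL 1 and Control 2 next to each other. The log2 fold was 0.14 (SE 0.061, 95% interval 0.004 to 0.28), which is 1.10-fold, with a limma adjusted p = 0.506. Over all probe sets, 5.45% were separated in this way, 3.15% with Sca1-HGAL higher and 2.3% with Sca1-HGAL lower, so 1 separated gene among 9 is little above the background. Over the 17 alternative settings its log2 fold stayed between 0.103 and 0.175, and its adjusted p between 0.358 and 0.759.

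H2-Aa and H2-Ab1 encode the alpha and beta chains of I-A, the class II molecule present in mouse strains of every H2 type. H2-Aa was at 13.50, 13.56, 13.51 and 13.55 on Sca1-HGAL arrays and at 13.44, 13.50, 13.45 and 13.51 on Control arrays. These groups overlapped in a range of 0.11 over 8 arrays, the narrowest of the 9 genes, and the log2 fold was 0.05 (SE 0.053, adjusted p = 0.801). H2-Ab1 was at 13.35, 13.32, 13.38 and 13.33 on Sca1-HGAL arrays, against 13.06, 13.30, 13.32 and 13.18 on Control arrays. The 4 Sca1-HGAL arrays lay close together, with an SD of 0.027, while the Control arrays had an SD of 0.122 with Control 1 lowest. Its log2 fold was 0.13 (SE 0.069, adjusted p = 0.604), and 0.08 without Control 1.

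H2-Ea and H2-Eb1 encode the chains of I-E. H2-Eb1 was at 13.45, 13.38, 13.47 and 13.44 on Sca1-HGAL arrays and at 13.32, 13.41, 13.22 and 13.40 on Control arrays. Its groups overlapped through Sca1-HGAL 2, with a log2 fold of 0.10 (SE 0.062, adjusted p = 0.674). Cd74, the invariant chain that escorts all class II molecules and also acts as a receptor subunit on B cells, was at 13.52, 13.44, 13.52 and 13.54 on Sca1-HGAL arrays, against 13.58, 13.54, 13.57 and 13.50 on Control arrays. It had one of the 2 negative log2 folds, -0.04 (SE 0.054, 95% interval -0.16 to 0.08, adjusted p = 0.852). The signals of these 5 genes were above those of at least 99.86% of probe sets.

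**Figure D3:**
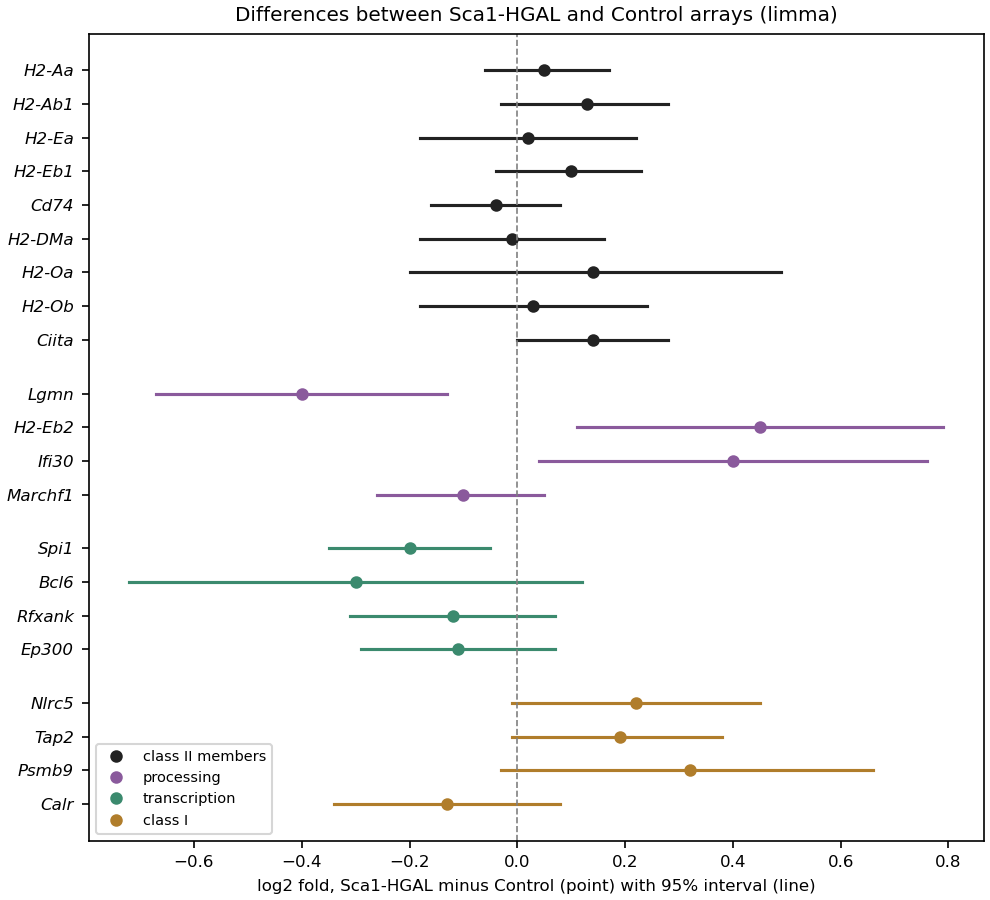
Log2 fold of Sca1-HGAL minus Control (points) with the limma 95% interval (lines) for the 9 class II genes and for 4 genes with the smallest p of each of 3 related lists. The class II genes lie between -0.04 and 0.14, and none of the genes drawn passed an adjusted p under 0.05.

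H2-Ea also reports on strain. C57BL/6 mice carry a deletion at the start of this gene and make no I-E alpha chain, whereas CBA mice, of the H2k type, make it, and the reference annotation of C57BL/6J lists H2-Ea as a transcribed pseudogene. Its level was 13.74, 13.63, 13.67 and 13.71 on Sca1-HGAL arrays, against 13.94, 13.56, 13.58 and 13.57 on Control arrays. All 8 arrays were thus in the top of the scale (above 99.96% of probe sets on average), and none had the low signal of a silent gene. Control 1 was highest, 0.37 above the mean of the other 3 Control arrays, or 1.30-fold. With it the groups overlapped, with a log2 fold of 0.02 (SE 0.090, adjusted p = 0.964). Without it the log2 fold was 0.12 (SE 0.061, adjusted p = 0.675), and each Sca1-HGAL array then exceeded each of the 3 Control arrays, a separation in that direction seen for 4.88% of all probe sets in the same comparison. Nnt, another gene that C57BL/6J mice lack in intact form, was at 9.40, 9.14, 8.98 and 9.09 on Sca1-HGAL arrays and at 9.46, 9.41, 9.11 and 9.33 on Control arrays. The difference was -0.18 on the log2 scale (SE 0.103, adjusted p = 0.631). The H2 type of each animal was not determined.

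H2-DMa, the alpha chain of the peptide exchange factor DM, was at 11.87, 11.70, 11.64 and 11.64 on Sca1-HGAL arrays and at 11.62, 11.71, 11.71 and 11.86 on Control arrays. The groups overlapped almost wholly, with a log2 fold of -0.01 (SE 0.076, adjusted p = 0.982). DO varied more. H2-Oa, its alpha chain, was at 11.72, 11.69, 11.23 and 11.45 on Sca1-HGAL arrays, against 10.95, 11.47, 11.45 and 11.64 on Control arrays. Its range of 0.77 was the widest of the 9 genes, with Sca1-HGAL 1 at the top and Control 1 at the bottom, 0.57 below the mean of the other 3 Control arrays. The log2 fold was 0.14 (SE 0.154, adjusted p = 0.821), and several arrays moved it by over 1.5 times. It was -0.001 without Control 1, 0.077 without Sca1-HGAL 1 and 0.088 without Sca1-HGAL 2, and it was 0.239 without Sca1-HGAL 3, 0.231 without Control 4 and 0.322 without Control 2 and 4 together.

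H2-Ob, the beta chain of DO, was at 12.70, 12.81, 12.88 and 12.65 on Sca1-HGAL arrays and at 12.48, 12.91, 12.73 and 12.80 on Control arrays. Control 1 was again lowest, and the highest array was Control 2. The log2 fold was 0.03 (SE 0.095, adjusted p = 0.954) with all arrays and -0.053 without Control 1 (adjusted p = 0.915). For H2-DMa, H2-Oa and H2-Ob, then, the SD within each group was larger than the difference between the groups.

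**Figure D4:**
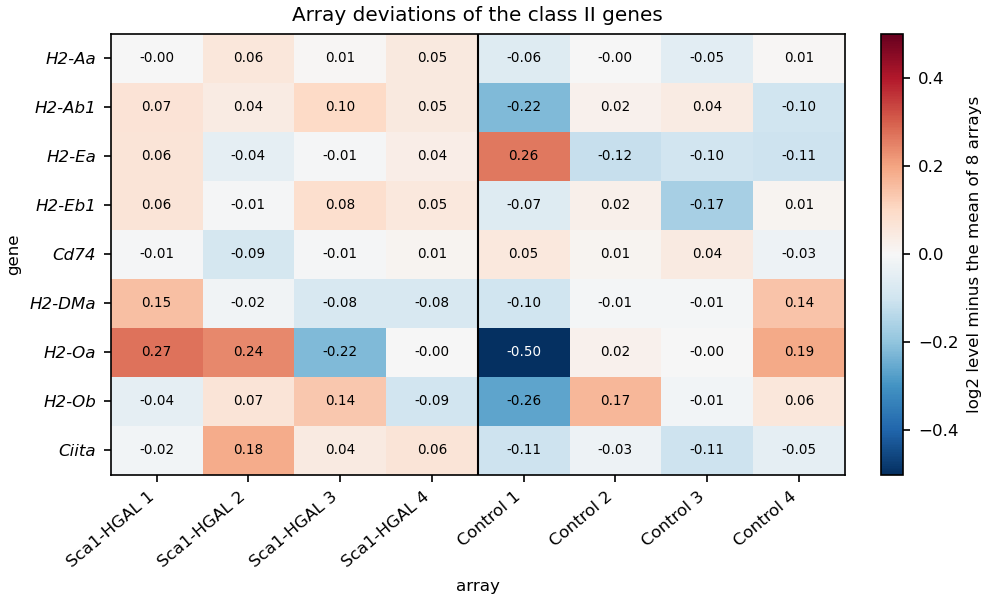
Log2 level of each class II gene on each array minus its mean over 8 arrays (colour and number), with the 4 Sca1-HGAL arrays left of the line. Control 1 has the lowest cell of the H2-Oa, H2-Ob and H2-Ab1 rows and the highest of the H2-Ea row.

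Control 1 stood apart most clearly for H2-Oa, H2-Ea, H2-Ob and H2-Ab1, by 0.285, 0.207, 0.167 and 0.117 from the next array. It had the lowest of the 8 levels for 6 of the 9 genes and the highest for H2-Ea and Cd74. Over all genes it was lowest for 15.5% and highest for 8.85%. The gap to the next array was small for Ciita (0.007), H2-Aa (0.01), H2-DMa (0.02) and Cd74 (0.016). Among the other 7 arrays, no array was lowest for more than 1 gene. Median deviations from the Control mean were 0.04 to 0.08 on the 4 Sca1-HGAL arrays, against -0.04, 0.05, -0.01 and 0.03 on Control 1 to 4. Without Control 1, none of the 9 genes passed, the median log2 fold was 0.04 and 5 of the 9 were positive. Over all genes the median was then 0.01, and 10819 of 19937 were positive. Without Control 2 and 4, the arrays with high Xist and low Y-linked signal, the median was 0.15, beside 0.02 over all genes. None of the 9 genes passed. Separated groups were then found for 4 of the 9, Ciita, H2-Aa and H2-Eb1 higher and Cd74 lower, where 17.7% of all probe sets were separated. The log2 folds of Ciita, H2-Aa, H2-Ab1 and H2-Eb1 were then 0.175, 0.083, 0.152 and 0.161, those of H2-DMa, H2-Oa and H2-Ob 0.047, 0.322 and 0.155, and those of H2-Ea and Cd74 -0.074 and -0.07.

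The neighbours of these genes on chromosome 17 were then set beside them. Between H2-K1 and H2-D1 in the reference gene order (GRCm38.p6), 79 genes were measured. They include 7 of the class II genes, so the counts below partly repeat those above. H2-Oa, H2-DMa, H2-Ob, H2-Ab1 and H2-Aa are among those lowest on Control 1. A rank can also rest on a small gap, such as 0.001 for Brd2. Control 1 was lowest for 25 of them (31.6%), while it was lowest for 15.5% of all genes. Sca1-HGAL 1 was highest for 25 of them (31.6%) as well, against 14.7% of all genes. In the stretch from H2-Oa to Btnl2, which holds 7 of the class II genes and was chosen after the values were seen, Control 1 was lowest for 10 of 14 genes and highest for 1, H2-Ea. In the remaining 65 genes it was lowest for 15 and highest for 4, while Sca1-HGAL 1 was highest for 21. H2-Eb2, a class II beta-like gene between H2-Eb1 and H2-Ea, was at 10.92 on Control 1 and at 11.50 to 12.06 on the other 7 arrays. Tap1, a subunit of the class I peptide transporter, was at 10.28 on Control 1 and at 10.66 to 11.10 elsewhere.

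None of the 79 genes passed limma, and 8 had an unadjusted p under 0.05, where 9.59% of all probe sets did. Of the 79 log2 folds 57 were positive, where 56.1% of all probe sets were. Their median was 0.06, beside 0.02 over all genes. Btnl2, a butyrophilin-like gene next to H2-Ea, had the smallest p. It was at 9.22, 8.83, 8.93 and 8.66 on Sca1-HGAL arrays, against 8.15, 8.60, 8.35 and 8.35 on Control arrays. The groups did not overlap, and the log2 fold was 0.55 (SE 0.126, adjusted p = 0.194). The log2 fold of D17H6S56E-5 was 0.19 (SE 0.069, adjusted p = 0.426), and Ltb, which encodes lymphotoxin beta, -0.17 (SE 0.064, adjusted p = 0.426).

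**Figure D5:**
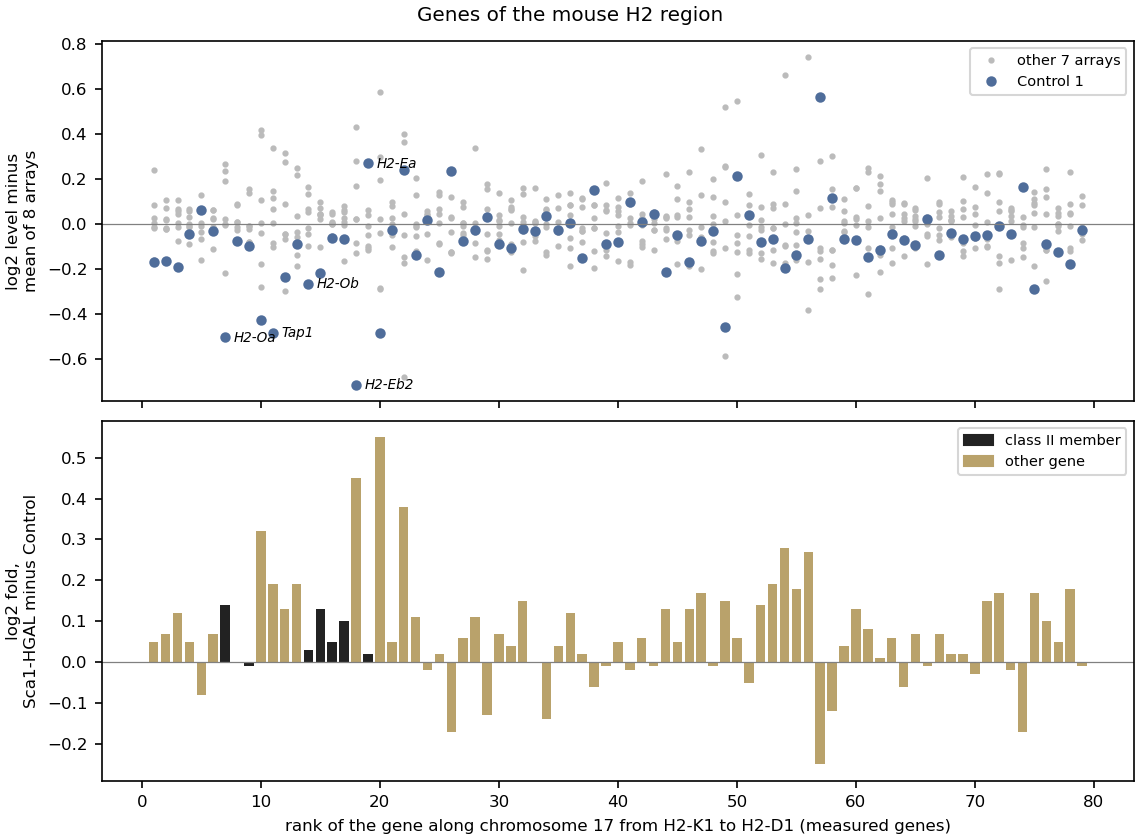
Genes measured between H2-K1 and H2-D1, by rank along chromosome 17. The upper panel shows log2 level minus the mean of 8 arrays for Control 1 (blue) and the other 7 arrays (grey), and the lower panel the log2 fold of Sca1-HGAL minus Control. Control 1 lies below the other arrays for H2-Oa, H2-Ob, Tap1 and H2-Eb2 and above them for H2-Ea.

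The list of loading and processing genes also held Marchf1, Cd83 and the class II beta-like gene H2-Eb2. Its log2 folds ran from -0.40 to 0.45, the highest being that of H2-Eb2. Of 12 measured genes of this list, 0 passed limma higher and 0 lower, and the median log2 fold was -0.01. An unadjusted limma p under 0.05 was found for 3 of the 12, against 9.59% of all probe sets. Lgmn, the lysosomal protease legumain, was at 9.96, 10.12, 10.21 and 10.36 on Sca1-HGAL arrays, against 10.44, 10.38, 10.55 and 10.88 on Control arrays. Every Sca1-HGAL array was below every Control array, with a log2 fold of -0.40 (SE 0.12, adjusted p = 0.326). Ifi30, the thiol reductase GILT that unfolds antigen in endosomes, was at 13.04, 13.04, 13.10 and 13.13 on Sca1-HGAL arrays and at 12.85, 12.10, 12.98 and 12.77 on Control arrays. Its groups did not overlap either, in the opposite direction, with a log2 fold of 0.40 (SE 0.162, adjusted p = 0.480) that was 0.16 without Control 2 and 4.

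H2-Eb2 was at 11.80, 12.06, 11.65 and 11.91 on Sca1-HGAL arrays, against 10.92, 11.65, 11.50 and 11.55 on Control arrays. The lowest Sca1-HGAL and the highest Control array met at 11.65, and the log2 fold was 0.45 (SE 0.153, adjusted p = 0.388), or 0.29 without Control 1. For Marchf1, the ubiquitin ligase that sends class II molecules for turnover, the log2 fold was -0.10 (SE 0.071, adjusted p = 0.694). Ctss, cathepsin S, which trims the invariant chain in B cells, was at -0.05 (SE 0.066, adjusted p = 0.869) and was named after its value was seen. The macrophage marker Adgre1, which encodes F4/80, averaged 8.80 on Sca1-HGAL and 7.78 on Control arrays (adjusted p = 0.122). The 8 macrophage and monocyte markers together had 3 positive and 5 negative log2 folds, with a median of -0.06. The part of such cells in these values was not tested.

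The genes listed for class II transcription, which include partners of CIITA and other regulators, showed no call. Of 16 genes 0 passed limma in either direction, and the median log2 fold was -0.05. Only 1 had an unadjusted limma p under 0.05, against 9.59% of all probe sets. That gene was Spi1, which encodes PU.1, at 10.60, 10.44, 10.67 and 10.57 on Sca1-HGAL arrays, against 10.76, 10.74, 10.87 and 10.72 on Control arrays. All Sca1-HGAL arrays were lower, with a log2 fold of -0.20 (SE 0.067, adjusted p = 0.369). For Bcl6, a transcriptional repressor that drives the germinal centre programme, the log2 fold was -0.30 (SE 0.186, adjusted p = 0.657), Rfxank, an RFX subunit, -0.12 (SE 0.083, adjusted p = 0.694), and Ep300, an acetyltransferase, -0.11 (SE 0.082, adjusted p = 0.714). Rfx5, the largest RFX subunit, had 0.06 (SE 0.059, adjusted p = 0.803) and was named after its value was seen.

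Class I presentation genes were set beside class II. Of 12 measured genes 0 passed limma, with a median log2 fold of 0.02. None had an unadjusted limma p under 0.05, against 9.59% of all probe sets. Nlrc5, the class I counterpart of Ciita, was at 10.81, 11.08, 10.62 and 10.83 on Sca1-HGAL arrays, against 10.43, 10.67, 10.71 and 10.67 on Control arrays. The log2 fold of its brightest probe set was 0.22 (SE 0.102, adjusted p = 0.538), and over its 19 probe sets the log2 fold ran from -0.09 to 0.34, with 15 positive. Psmb9, an immunoproteasome subunit, had 0.32 (SE 0.155, adjusted p = 0.551), Tap2, the other subunit of the peptide transporter, 0.19 (SE 0.089, adjusted p = 0.545), and the chaperone gene Calr -0.13 (SE 0.094, adjusted p = 0.722). Psmb9 was lowest on Control 1 and next lowest on Sca1-HGAL 3, the same pair of arrays that was lowest for H2-Oa. Of the T cell markers, Cd3d, Cd3e, Cd3g and Cd28 were also lowest on this pair, while Cd4 and Cd8a were not. The part of T cells in these values was not tested.

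The genes most like the classical chains over the 8 arrays were sought among 14877 genes with a mean log2 level of at least 6. Against the mean of H2-Aa, H2-Ab1, H2-Eb1 and Cd74, which was 13.42 to 13.47 on Sca1-HGAL and 13.35 to 13.44 on Control arrays, the closest were Sox3, Cux2, Extl1, Chst13 and Cldn14, with a likeness (Pearson coefficient over 8 arrays) of 0.93 to 0.96. For H2-Ea they were Tmem65, Rab40c, Cdo1, Galnt6 and Ell2, at 0.92 to 0.96, and 0.79 to 0.96 without Control 1. They are the top of a search over many genes, the arrays are few, and 1 of these 10, Rab40c, lies on chromosome 17.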

How the data were processed

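Total RNA from sorted spleen B cells was measured on 4 Sca1-HGAL and 4 Control arrays, grouped by sample title. The authors deposited linear intensities, and the submitters' processing notes name RMA, with no version. RMA equalises the distributions of the arrays, which removes any shift that most genes share. Log2 was taken of the deposited intensities with no pseudocount. The lowest and highest deposited values were 4.94 and 24302, and array medians were 145.2 to 151.4. The 4 arrays per group limit precision. Of 34760 probe sets, 21640 paired with 1 gene symbol were tested, 1321 had several and 11799 were not listed. The brightest probe set over 8 arrays stood for a gene.

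limma 3.58.1 in R 4.3.3 (lmFit, eBayes, group only, two-sided) gave folds, intervals and Benjamini-Hochberg adjusted p-values, with 0.05 as the threshold. The code was tested on simulated data with planted folds larger than any class II fold here. That test does not bear on folds as small as those of the class II genes. Members, lists and tests were chosen with earlier results of these data known. Named were the members, up to 4 genes with the smallest p per list and for the H2 region, and the 5 genes most like the classical chains and H2-Ea, with unnamed predicted genes passed over. Promoter sequences are from RefSeq. Alternatives were 2 other scalings, a filter at log2 6, all rows, array weights, a replicate block, another prior, averaging the probe sets of a gene, and left-out arrays. Same-numbered arrays did not deviate together (correlations of -0.160 to 0.053 for the 4 numbers). Such values cannot show whether the numbers pair samples, and the main fit used no pairing.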

Additional observations from a re-analysis of the deposited data

Results flagged for a closer look

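In 68 groups of 4 values checked over 34 genes, 1 array lay far from the remaining 3 in 5 groups, where chance gives about 3.4. Among the 18 groups of class II genes there was 1, H2-Ea on Control 1, at 13.94 with the other Control arrays at 13.56 to 13.58. Control 1 was also apart for Nlrc5, lowest at 10.43 with the others at 10.67 to 10.71, for Tmem65, highest at 8.31 with the others at 8.03 to 8.07, and for Galnt6, highest at 8.74 with the others at 7.74 to 7.89. Tmem65 and Galnt6 were picked for their likeness to H2-Ea, so they share this array by choice. Sca1-HGAL 2 was lowest for Calr, at 11.49, while the remaining 3 were at 11.82 to 11.83.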

How the results depend on the processing

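None of the 9 class II genes passed in any of the 17 alternative settings, and Ciita, H2-Aa, H2-Ab1, H2-Eb1 and Cd74 kept their direction in all 17. The count of probe sets called, 1, became 12 with array weights, 6 with a replicate block, 2 when probe sets of a gene were averaged, 2 without Control 2 and 4 together, and 1 to 40 when 1 array was left out, with 40 without Sca1-HGAL 3. The replicate block changed no call among the class II genes. The median log2 fold, 0.05, was 0.152 without Control 2 and 4, where it was 0.02 over all genes. It was 0.042 to 0.090 with 1 array left out. Genes with separated groups were 1 of 9 with all arrays, where 5.45% of probe sets were separated. They were 2 without Control 1, where 8.93% were. Without Control 2 and 4 they were 4 (Ciita, H2-Aa and H2-Eb1 higher, Cd74 lower), where 17.7% were. They numbered 2 after a second quantile normalization and 1 to 3 with 1 array left out. For the second quantile normalization and the other left-out arrays no share over all probe sets was computed, so those counts are not read as a result. Positive folds numbered 5 to 8 and negative folds, 2, numbered 1 after a second quantile normalization and 1 to 4 with 1 array left out. The small folds turned sign. H2-DMa was 0.025 after a second quantile normalization and 0.047 without Control 2 and 4, H2-Ob -0.003 with array weights, and H2-Ea -0.074 without Control 2 and 4. With 1 array left out, H2-DMa ranged from -0.065 to 0.033, H2-Ob from -0.053 to 0.090, H2-Ea from -0.011 to 0.117 and H2-Oa from -0.001 to 0.239. The cause of these changes was not tested. With 4 arrays per group, differences within the intervals given above could not be resolved.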
